A study of Mus musculus with 8 samples.

Results

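The 6 crystallin genes *Cryl1*, *Cryz*, *Cryzl1*, *Crym*, *Cryab* and *Cryaa* were examined in whole kidneys of adult mice with or without c-Maf, because some crystallins are known targets of c-Maf in the lens. They were taken by gene symbol from the 55367 rows of the gene count table, and all 6 were found. The series holds 8 mice of strain C57BL/6J, labelled as 8 weeks old, with 4 mice of the genotype Maf conditional KO and 4 of the genotype Maf flox/flox. The Maf conditional KO mice (*c-Maf* ΔTAM in the study, KO mice below) carry floxed alleles of *c-Maf* and a tamoxifen-inducible Cre recombinase (CAG-Cre-ERTM). The Maf flox/flox mice (flox/flox mice below) carry the same alleles without Cre, and per the study's methods both genotypes received tamoxifen. The CAG promoter is active in nearly all cell types, so the deletion was not restricted to the tubules. The study's text places the expression profiles at 10 days after tamoxifen, a time that the labels do not give. Each mouse gave 1 library.

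Crystallins are the abundant soluble proteins that keep the lens transparent, and several of them are also expressed in other tissues. *Cryab* and *Cryaa* encode the α-crystallins, small heat shock proteins that hold unfolding proteins in solution. The others were named for enzymes that some vertebrates recruited into the lens: *Cryl1* encodes λ-crystallin, an L-gulonate dehydrogenase, *Cryz* encodes ζ-crystallin, an NADPH-dependent quinone reductase, *Cryzl1* encodes a related protein, and *Crym* encodes μ-crystallin, a cytosolic thyroid hormone binding protein that also reduces ketimines. c-Maf is a basic leucine zipper factor that drives crystallin transcription in lens fibre cells, and the adult kidney expresses it in the proximal tubule.

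The libraries held 16649129 to 22990257 counted reads. *Maf* was at 178 to 671 counts in the KO mice and at 5988 to 7746 counts in the flox/flox mice, a log2 fold change of -4.05 (SE 0.512, adjusted p = 0.0115). *Xist* was at 2 to 22 counts in KO mouse 1 and flox/flox mice 3 and 4, with 475 to 568 counts of the Y-linked *Eif2s3y*, and at 17618 to 22387 counts in the other 5 mice, with 0 to 2 counts of *Eif2s3y*. Sex is not given in the labels, and these are called low-Xist and high-Xist mice. The labels name whole kidney as the tissue but liver in the RNA protocol; the proximal tubule markers summed to 9242 to 16070 CPM and the 8 hepatocyte markers to 34.4 to 60.0 CPM. Mitochondrial genes took 17.1 to 32.3% of counts, the most in KO mouse 1.

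Of the 6 crystallin genes, 1 fell in KO kidneys, 0 rose and 5 did not pass the test. The gene that fell was *Cryl1*, whose mRNA was about halved; the other 5 had adjusted p-values of 0.341 to 0.992. Levels are given as CPM, read counts divided by the library total in megareads after scaling between libraries by trimmed means (TMM), so that values compare between mice. Differences are log2 fold changes of KO over flox/flox from edgeR's quasi-likelihood test over 20149 genes, with Benjamini-Hochberg adjusted p-values called below 0.05. All 6 crystallin genes were among the genes tested. Of all genes tested 2.16% were called, with 1.58% lower and 0.586% higher. The study's text reports the reverse balance from its own edgeR test at the same cut-off, with more genes higher than lower. The reason for the difference was not tested. The levels of the 4 KO mice lay outside the range of the 4 flox/flox mice for *Cryl1* alone among the 6 genes, against 9.79% of all genes tested (5.62% with KO mice lower and 4.17% with KO mice higher).

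**Figure D1:**
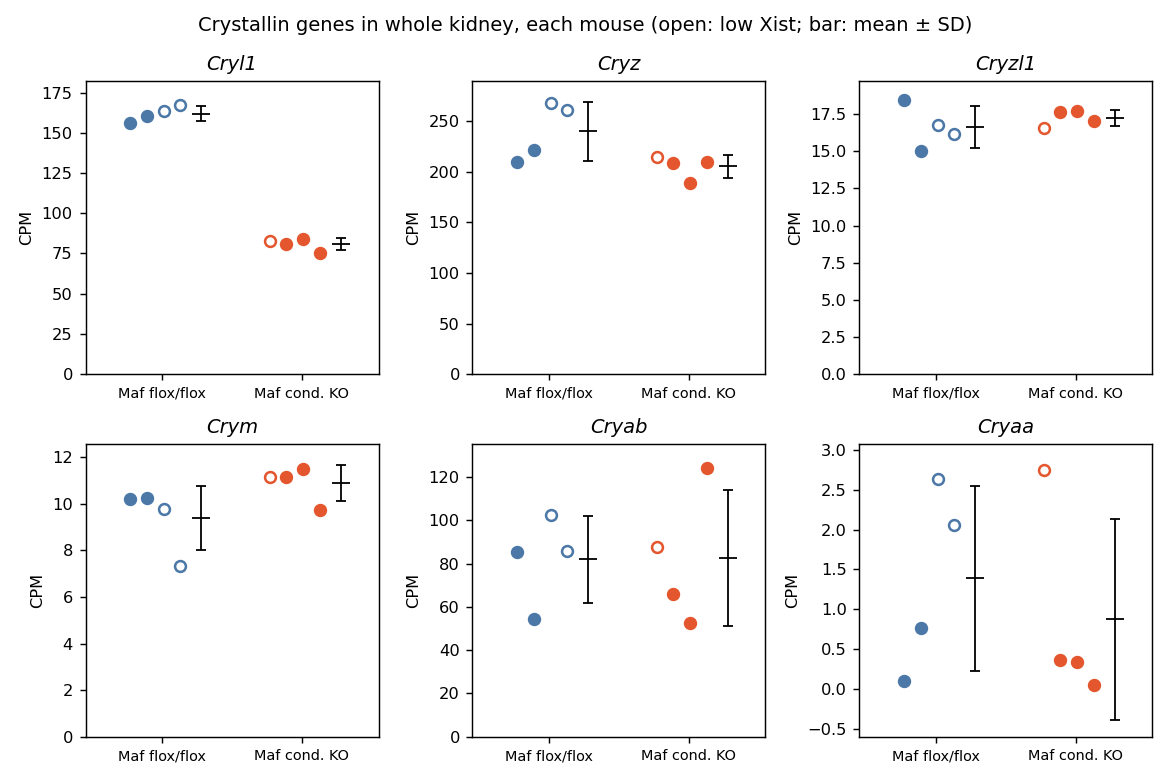
CPM of each crystallin gene (y axis, 1 panel per gene) in 4 Maf flox/flox mice (blue) and 4 Maf conditional KO mice (orange), with open points for low-Xist mice and black bars for the mean ± SD. *Cryl1* lies between 75.4 and 84.2 CPM in the Maf conditional KO mice and between 156 and 167 CPM in the Maf flox/flox mice; *Cryaa* is highest in the 3 open points.

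Per kilobase of annotated exon, *Cryl1*, *Cryab* and *Cryz* had the highest levels among the 6 crystallin genes, and *Cryaa* had the lowest. In flox/flox mice the mean level was 74.3 ± 2.20 CPM per kilobase for *Cryl1*, 55.4 ± 13.5 for *Cryab* and 38.8 ± 4.70 for *Cryz* (SD, n = 4). *Cryzl1* followed at 3.67 ± 0.314, *Crym* at 2.77 ± 0.410 and *Cryaa* at 0.669 ± 0.560 CPM per kilobase. In KO mice *Cryl1*, at 37.1 ± 1.77 CPM per kilobase, stood behind *Cryab* at 55.8 ± 21.1. The ratio of *Cryl1* to *Cryab* per kilobase was above 1 in 4 of 4 flox/flox mice (1.09 to 2.00) and in 1 of 4 KO mice (0.413 to 1.09). The ranges of these neighbours overlapped in KO mice and not in flox/flox mice. *Cryab* stood above *Cryz* within each of the 8 mice, at 1.03 to 2.48 times its level, but their ranges over the flox/flox mice overlapped. *Cryzl1* stood above *Crym* in each of the 8 mice, at 1.10 to 1.65 times its level, with ranges that did not overlap in either genotype. The length used is the union of all annotated exons, which for *Cryz* is 6195 bases and for *Cryab* 1479 bases, and a kidney transcript shorter than the union has a level above the one given.

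**Figure D2:**
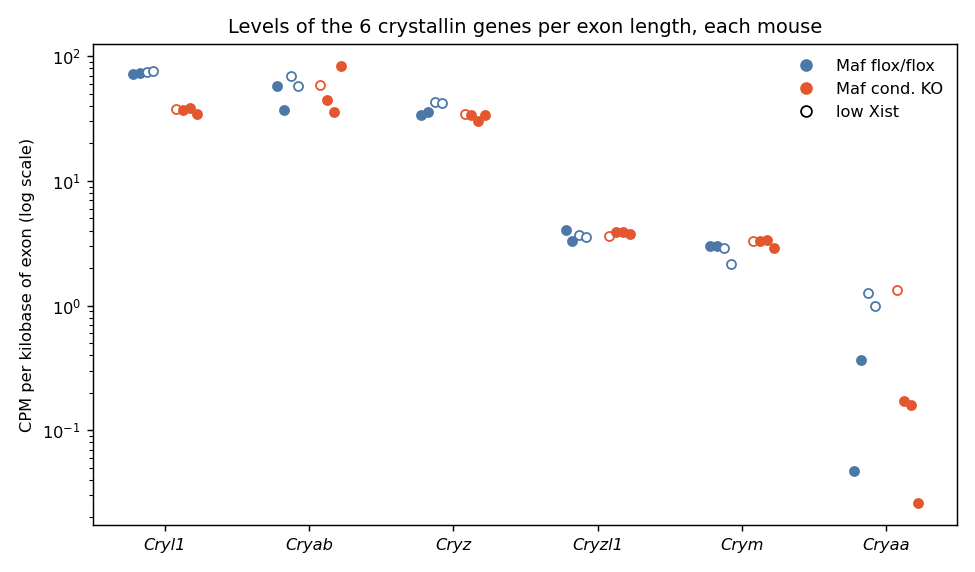
Levels of the 6 crystallin genes in CPM per kilobase of exon (y axis, log scale) for each mouse, Maf flox/flox in blue and Maf conditional KO in orange, open for low-Xist mice. The genes fall into an upper set of *Cryl1*, *Cryab* and *Cryz*, a middle pair of *Cryzl1* and *Crym* at about 2.16 to 4.07, and *Cryaa*, which runs from 0.0261 to 1.32.

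*Cryl1* (chr14:57274993-57398529 in GRCm38, minus strand, protein coding, with no exon shared with another annotated gene) encodes the enzyme that oxidises L-gulonate to 3-dehydro-L-gulonate. In flox/flox mice 1 to 4 its level was 156, 160.5, 164 and 167 CPM. In KO mice 1 to 4 it was 82.8, 80.7, 84.2 and 75.4 CPM. The groups were far apart and each was narrow, with a coefficient of variation of 4.77% in KO and 2.96% in flox/flox mice. The log2 fold change was -1.0 (SE 0.0755, 95% CI -1.17 to -0.84, adjusted p = 2.65e-05), a 2.00-fold lower level in KO mice. *Cryl1* stood at rank 14 of all 20149 genes by p-value. It was called in each of the 8 fits that left out 1 mouse, with log2 fold changes of -1.02 to -0.97. In a fit with genotype and *Xist* as a 2-level term, the *Cryl1* difference between high-Xist and low-Xist mice was -0.06 (high minus low, SE 0.0698, adjusted p = 0.67).

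The summed level of 7 proximal tubule markers moved in the same direction as *Cryl1*. It was 9242 to 12770 CPM in KO and 13904 to 16070 CPM in flox/flox mice, with none of the 7 at 0. Of these markers 1 was called, *Slc34a1*, a phosphate transporter of the tubule that fell by 1.23 on the log2 scale (adjusted p = 2.17e-04). *Lrp2*, which encodes megalin, had a log2 fold change of -0.17 (adjusted p = 0.719) and *Cubn*, which encodes cubilin, one of -0.03 (adjusted p = 0.912). *Slc22a8*, an organic anion transporter, did not pass the test at -1.07 (adjusted p = 0.528), though its groups did not overlap (31.9 to 296 CPM in KO and 337 to 545 CPM in flox/flox mice). Without *Slc34a1* the other 6 markers summed to 7495 to 10798 CPM in KO and 10402 to 12177 CPM in flox/flox mice, which overlap. The summed levels of 2 other marker lists also separated the genotypes without overlap. The 5 endothelial markers, with 1 called, summed to 348 to 355 CPM in KO and 370.2 to 423 CPM in flox/flox mice. The 6 macrophage markers, with 0 called, summed to 99.0 to 103 against 86.0 to 93.0 CPM, and no marker of either list was at 0. Taken singly, only *Kdr* among the endothelial markers had groups that did not overlap, and none of the macrophage markers did. The part of cell type numbers in the *Cryl1* difference was not tested, and in whole kidney RNA fewer cells of a type and less RNA per cell cannot be told apart.

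*Cryl1* acts in the uronate route, by which the kidney turns myo-inositol into xylulose phosphate: *Miox* makes glucuronate, *Akr1a1* reduces it to gulonate, *Cryl1* oxidises gulonate, *Dcxr* reduces xylulose to xylitol, *Sord* oxidises xylitol, and *Xylb* phosphorylates the xylulose formed. Of the 10 other genes listed for this pathway 9 were tested, and 4 fell while 0 rose, against 1.58% and 0.586% of all genes tested. The 4 that fell were *Akr1a1*, *Dcxr*, *Sord* and *Xylb*, the reductase before *Cryl1* and 3 enzymes after it. The median log2 fold change of the 9 genes was -0.27, against 0.00272 over all genes tested. Groups did not overlap for 4 of the 9, against 9.79% of all genes tested. The list was drawn up with earlier results of these data known, so its count is a description.

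*Akr1a1* was at 803, 826, 1109 and 1063 CPM in flox/flox mice 1 to 4. It was at 424, 413, 357 and 373 CPM in KO mice 1 to 4. The groups did not overlap, and *Akr1a1* fell by 1.28 on the log2 scale (SE 0.125, adjusted p = 1.85e-04). The 2 low-Xist mice stood above the 2 high-Xist mice within the flox/flox group, as they did by a smaller margin for *Cryl1*. *Dcxr* was at 94.1, 97.9, 96.7 and 103 CPM in flox/flox mice and at 30.1, 42.3, 42.0 and 43.3 CPM in KO mice. *Dcxr* fell by 1.31 on the log2 scale (SE 0.112, adjusted p = 8.68e-05), and KO mouse 1 was the lowest of all.

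*Sord* was at 431, 493, 600.3 and 561 CPM in flox/flox mice and at 345, 311, 280.5 and 255 CPM in KO mice. It fell by 0.81 on the log2 scale (SE 0.126, adjusted p = 0.00567). Of its 36-base stretches 34.6% also occur in other genes, mostly in *Gm6652*, so reads may have been assigned to the copy or dropped and its counts are uncertain. *Xylb* was at 300.2, 323, 328 and 378 CPM in flox/flox mice and at 273, 208, 199.7 and 197 CPM in KO mice. The groups did not overlap, but the fall of 0.60 on the log2 scale (SE 0.120, adjusted p = 0.0237) was past the threshold in only 2 of the 8 fits that left out 1 mouse, with an adjusted p of up to 0.104 without KO mouse 3; only the fits without KO mouse 1 or flox/flox mouse 1 kept the call.

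The other 5 genes tested of the list, named here as the rest of the pathway after their values were seen, did not pass the test. *Miox*, the oxygenase that opens the route, had a log2 fold change of -0.27 (SE 0.119, adjusted p = 0.337) at a mean of 1396 CPM in flox/flox and 1158 CPM in KO mice. *Ugdh*, which makes UDP-glucuronate, had one of -0.21 (adjusted p = 0.439). *Ugp2*, which makes UDP-glucose, had one of 0.27 (adjusted p = 0.311), *Gusb*, a glucuronidase, one of 0.07 (adjusted p = 0.878) and *Rgn*, a gulonolactonase, one of 0.17. The ranges of both genotypes overlapped for all 5 of these genes.

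**Figure D3:**
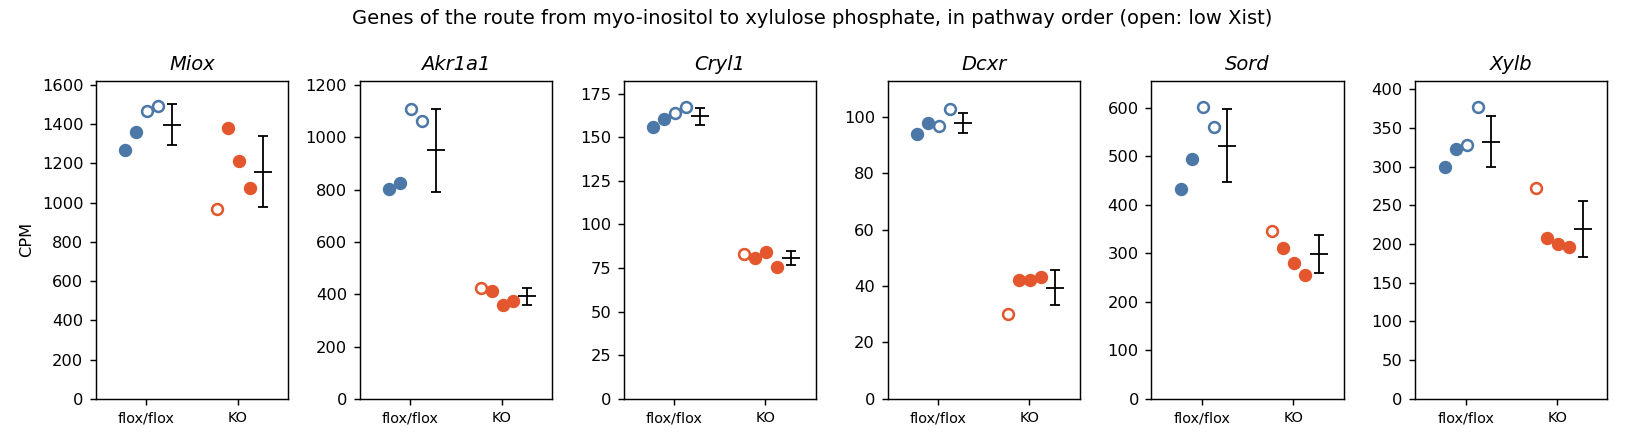
CPM (y axis, from 0) of *Miox*, *Akr1a1*, *Cryl1*, *Dcxr*, *Sord* and *Xylb* in order along the route, each mouse 1 point, Maf flox/flox in blue and Maf conditional KO in orange, open for low-Xist mice, with black bars for the mean ± SD. All but *Miox* have non-overlapping groups; *Miox* overlaps, at 1267 to 1494 against 966 to 1381 CPM.

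The promoters of *Cryl1* and *Dcxr* are shown because these genes had the 2 smallest p-values among *Cryl1* and the uronate genes and differ in the letters searched. The sequences are the 250 bases before the start of each gene, taken from RefSeq on GRCm38.p6 and written 5′ to 3′ on the gene's strand, *Cryl1* at chr14:57398484-57398733 and *Dcxr* at chr11:120727285-120727534, both on the minus strand. The RefSeq start of *Cryl1* used here lies inside the gene span of the count table, so the window overlaps the first bases of that span. Capitals mark TGCTGA, one arm of the Maf recognition element made of its flanking TGC and the first letters of its core, with a following C where present, on either strand. TGACTCA, the core of one form of the element, was also searched.
Cryl1: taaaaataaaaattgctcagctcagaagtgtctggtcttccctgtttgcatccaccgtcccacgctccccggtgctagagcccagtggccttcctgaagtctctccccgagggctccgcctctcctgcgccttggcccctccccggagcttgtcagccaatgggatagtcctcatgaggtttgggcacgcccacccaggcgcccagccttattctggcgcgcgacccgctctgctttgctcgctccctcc
Dcxr: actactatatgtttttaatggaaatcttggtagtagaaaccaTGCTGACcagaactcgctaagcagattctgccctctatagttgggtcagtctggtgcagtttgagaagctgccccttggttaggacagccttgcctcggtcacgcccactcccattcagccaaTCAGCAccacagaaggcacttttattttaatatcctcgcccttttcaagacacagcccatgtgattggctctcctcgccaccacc
The *Cryl1* window had no capital letters. The *Dcxr* window held TGCTGAC from -208 to -202 and TGCTGA on the other strand from -85 to -80, counted from the start. Searched on both strands from 250 bases before to 50 bases after the start, TGCTGA occurs in 19.5% of 32851 promoters, TGCTGAC, which contains it, in 4.67%, and TGACTCA in 5.2%. The windows of *Cryz*, *Cryzl1*, *Akr1a1* and *Sord* held none of the 3. These are matches of letters only, binding was not measured here, and 4 of the 6 crystallin genes (*Cryl1*, *Cryz*, *Cryzl1* and *Cryaa*) had a promoter in the RefSeq table.

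*Cryz* (chr3:154596711-154623182, plus strand) encodes a quinone reductase that also binds mRNA, among others that of the renal glutaminase. Its level was 209.7, 221, 269 and 261 CPM in flox/flox mice 1 to 4. It was 215, 209, 189 and 209.9 CPM in KO mice 1 to 4. The groups overlapped, and the higher flox/flox values were those of the 2 low-Xist mice. The log2 fold change was -0.23 (SE 0.100, 95% CI -0.44 to -0.01), with an unadjusted p of 0.044 in edgeR's test and an adjusted p of 0.341, so it did not pass the test. In high-Xist mice alone, 3 KO and 2 flox/flox, it was -0.09. Of the 4 genes listed for glutaminase and ammonia production 0 were called by edgeR, against 1 at an unadjusted p under 0.05 and 1 by DESeq2; the 2 with the highest levels were *Pck1*, a gluconeogenic enzyme, at -0.67 (adjusted p = 0.068) with groups that did not overlap, and *Glud1*, glutamate dehydrogenase, at -0.27 (adjusted p = 0.415). *Cryz* shares 4.07% of its exon bases with *Tyw3*, whose start lies 393 bases away on the opposite strand and whose log2 fold change was 0.34 (adjusted p = 0.788).

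*Cryzl1* (chr16:91689322-91728975, minus strand) was nearly level across the 8 mice. It was at 18.4, 15.0, 16.8 and 16.2 CPM in flox/flox and at 16.5, 17.7, 17.7 and 17.1 CPM in KO mice, and the groups overlapped. The log2 fold change was 0.05 (SE 0.0996, 95% CI -0.16 to 0.27, adjusted p = 0.865), an interval of 0.892 to 1.21-fold. Exons of *Gm10785* cover 9.8% of the *Cryzl1* exon bases, and *Gm10785* was at a mean of 1.42 CPM. *Itsn1*, whose start lies 306 bases away on the opposite strand, had a log2 fold change of 0.01 (adjusted p = 0.986). *Cryzl2*, a relative of *Cryzl1* that was chosen after its values were seen, had one of 0.15 (SE 0.129, adjusted p = 0.655).

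*Cryz* and *Cryzl1* belong to the medium-chain dehydrogenases and reductases. Of 14 other genes listed for this superfamily and for quinone reduction, 12 were tested. Of these 2 fell and 0 rose, against 1.58% and 0.586% of all genes tested. One was *Sord*, given above. The other was *Nqo1*, a quinone reductase of another protein family and a target of the antioxidant response, at 33.2, 27.1, 19.7 and 27.2 CPM in flox/flox mice and 17.4, 13.1, 12 and 19.0 CPM in KO mice. The groups of *Nqo1* stood close to each other, and its log2 fold change was -0.80 (SE 0.181, adjusted p = 0.0483), past the threshold in 2 of the 8 fits that left out 1 mouse, those without KO mouse 4 or flox/flox mouse 3. The median of the 12 genes was -0.11. Against 1.58% of all genes tested called lower, 1 of 5 genes that serve as lens crystallins in other vertebrates fell and 0 rose. It was *Asl*, argininosuccinate lyase and the δ-crystallin of birds, with a log2 fold change of -0.66 (SE 0.130, adjusted p = 0.0223), which was past the threshold in 4 of the 8 fits, not in those without KO mouse 2 or 3 or flox/flox mouse 1 or 2 (adjusted p up to 0.0719).

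*Crym* (chr7:120186380-120202111, minus strand, with no exon shared with another gene) had the lowest level after *Cryaa*. It was at 10.2, 10.2, 9.79 and 7.33 CPM in flox/flox and at 11.1, 11.1, 11.5 and 9.75 CPM in KO mice. The groups overlapped, with replicate 4 the lowest of each. The log2 fold change was 0.21 (SE 0.139, 95% CI -0.09 to 0.51, adjusted p = 0.555).

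Of 16 genes listed for thyroid hormone handling 14 were tested, 2 fell and 0 rose, against 1.58% and 0.586% of all genes tested. Groups did not overlap for 5 of the 14, with KO mice lower in 4 and higher in 1, against 9.79% of all genes tested. *Slc16a10*, a transporter of aromatic amino acids and thyroid hormone, was at 62.1, 61.7, 84.7 and 71.3 CPM in flox/flox and 33.7, 37.4, 35.7 and 31.0 CPM in KO mice, a log2 fold change of -1.02 (SE 0.112, adjusted p = 3.73e-04). *Ttr*, which encodes the thyroid hormone carrier transthyretin, was at 32.6, 31.5, 67.8 and 33.5 CPM against 0.204, 3.03, 1.33 and 0.487 CPM. The groups of *Ttr* lay far apart, with a log2 fold change of -5.02 (SE 0.678, adjusted p = 0.0152), though without KO mouse 3 or 4 the adjusted p was up to 0.0752. Of 10 symbols listed for lysine and ketimine metabolism 8 had a row, and all 8 were tested. Of these genes 2 fell and 0 rose, against the same 1.58% and 0.586% of all genes tested. *Aass*, the first enzyme of lysine breakdown by saccharopine, fell from a mean of 297 ± 44.7 CPM in flox/flox to 142 ± 12.1 CPM (SD, n = 4), a log2 fold change of -1.07 (adjusted p = 3.71e-04). *Aldh7a1*, which acts further down the same route, fell from 249 ± 26.6 to 93.8 ± 7.96 CPM (SD, n = 4), a log2 fold change of -1.41 (adjusted p = 1.93e-05). The medians were -0.09 over the 14 thyroid genes and -0.23 over the 8 lysine genes.

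*Cryab* (chr9:50751325-50756636, plus strand), the chaperone that is known from the renal medulla and is induced by high salt, varied more between mice than between genotypes. It was at 85.2, 54.4, 102 and 86.0 CPM in flox/flox mice 1 to 4 and at 87.9, 65.7, 52.6 and 124 CPM in KO mice 1 to 4. The groups overlapped throughout, and KO mice held both the highest and the lowest value. The log2 fold change was 0.01 (SE 0.296, 95% CI -0.68 to 0.70, adjusted p = 0.992), so that changes between 0.625 and 1.62-fold lie within the interval. Its sign turned without KO mouse 1 (-0.02), KO mouse 4 (-0.25) or flox/flox mouse 2 (-0.14).

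Some marker lists, picked here after their values were seen, were highest in the kidneys with the most *Cryab*, KO mouse 4 and flox/flox mouse 3, and others were not. The 6 markers of urothelium and papillary surface summed to 19.5 and 17.4 CPM in them and to 4.10 to 11.5 CPM in the other 6 mice. The 4 adipocyte markers summed to 6.55 and 37.5 CPM in them and to at most 0.814 CPM elsewhere. Markers of the thin limb summed to 230 CPM in KO mouse 4, the highest of all, and to 139 CPM in flox/flox mouse 3, within the range of the others. Collecting duct markers summed to 504 CPM in KO mouse 4 and 342 CPM in flox/flox mouse 3, against up to 563 CPM in flox/flox mouse 1. The urothelial sum was lowest in flox/flox mouse 4, whose *Cryab* level of 86.0 CPM was the fourth highest of all. How much of the *Cryab* spread comes with the tissue that was sampled was not tested.

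Small heat shock proteins and the heat shock response did not pass the test in either direction. Of 8 small heat shock genes 7 were tested and 0 called, with a median log2 fold change of -0.22. The most abundant by CPM were *Hspb1*, with a log2 fold change of 0.11 (adjusted p = 0.857), and *Hspb7*, with one of -0.19 (adjusted p = 0.71). *Hspb2*, which starts 1029 bases from *Cryab* on the opposite strand and shares 17% of the *Cryab* exon bases, was at 0.952 ± 0.358 CPM in flox/flox and 0.772 ± 0.188 CPM in KO mice. The 7 small heat shock genes had 0 with an unadjusted p under 0.05 in edgeR's test and 0 calls by DESeq2. Of 10 heat shock response genes 0 were called by edgeR, 3 had an unadjusted p under 0.05 and 1 was called by DESeq2. The constitutive chaperone *Hspa8* was the only one whose groups did not overlap, at a log2 fold change of -0.38 (adjusted p = 0.108), and *Hsph1* had one of -0.35 (adjusted p = 0.327).

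Among the 6 genes listed for the osmotic response, 2 rose and 0 fell, and their median log2 fold change was 0.33. Of all genes tested 0.586% were called higher and 1.58% lower. *Slc6a6*, the taurine transporter, was at 417, 408, 554 and 548 CPM in flox/flox and at 763, 826, 696 and 658 CPM in KO mice. It had a log2 fold change of 0.61 (SE 0.126, adjusted p = 0.0286), which was not past the threshold without KO mouse 2 or 3 or flox/flox mouse 1 or 2 (adjusted p up to 0.106). *Slc6a12*, the betaine transporter, was at 1.52, 1.04, 1.57 and 0.704 CPM against 3.21, 3.65, 3.94 and 6.01 CPM, a log2 fold change of 1.78 (SE 0.295, adjusted p = 0.00794). Both transporters had higher levels in every KO mouse than in any flox/flox mouse.

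*Cryaa* (chr17:31677807-31681733, plus strand), the α-crystallin that is most restricted to the lens and whose lens promoter is a classical c-Maf target, had few reads and was highest in the low-Xist mice of both genotypes. Its counts were 2, 17, 52 and 35 in flox/flox mice 1 to 4 and 54, 7, 6 and 1 in KO mice 1 to 4. These are 0.0981, 0.767, 2.64 and 2.05 CPM against 2.75, 0.359, 0.333 and 0.0541 CPM. The 3 low-Xist mice, of both genotypes, were the 3 highest, at 2.05 to 2.75 CPM, and the 5 high-Xist mice stood at 0.0541 to 0.767 CPM. The genotype difference was -0.63 (log2 fold change, SE 1.10, 95% CI -3.21 to 1.94, adjusted p = 0.857), and the interval spans changes of several fold in either direction. In a fit with genotype and *Xist* as a 2-level term, chosen after seeing the data, *Cryaa* was lower with high *Xist* by a log2 difference of -2.85 (SE 0.487), and 6.59% of all genes were called lower with high *Xist*. That value restates the pattern for which the term was chosen and is a description. *Cryaa* passed the filter on low counts mainly through the low-Xist mice. The genotype difference in that fit was -0.22 (SE 0.504, adjusted p = 0.856). None of the other 5 crystallin genes was called for that term (adjusted p from 0.0889 for *Cryz* to 0.848 for *Cryzl1*). Leaving out 1 mouse at a time with genotype alone gave -2.43 (adjusted p = 0.32) without KO mouse 1 to -0.10 (adjusted p = 0.983) without flox/flox mouse 3, and no such fit passed the test. Apart from KO mouse 1 the KO mice are all high-Xist, while 2 of the 4 flox/flox mice are low-Xist.

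The *Cryaa* promoter is shown because it held all 3 of the searched motifs. The 250 bases before the start lie at chr17:31677681-31677930 on the plus strand (RefSeq, GRCm38.p6), written 5′ to 3′ with TGCTGAC in capitals. The RefSeq start lies downstream of the start in the count table, so the latter part of the window, with the capitals, is inside the gene span given above.
Cryaa: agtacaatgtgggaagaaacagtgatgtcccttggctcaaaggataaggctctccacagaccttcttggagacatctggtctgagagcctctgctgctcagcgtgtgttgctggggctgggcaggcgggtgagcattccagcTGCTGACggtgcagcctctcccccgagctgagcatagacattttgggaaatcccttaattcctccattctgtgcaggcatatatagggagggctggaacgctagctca
TGCTGAC lies from -108 to -102, and TGACTCA from 28 to 34 after the start, outside the stretch shown. *Cryaa* shares 13.2% of its exon bases with *Gm50222*, and 9.76% of its 36-base stretches occur in another gene, mostly *AC090881.2*, so its few counts are uncertain.

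The lens β- and γ-crystallins were scarce in the kidney. Of 19 symbols listed for the β- and γ-crystallins and their relatives 17 had a row, 7 of these were at 0 counts in all 8 mice and 4 were tested. A count of 0 allows up to 0.135 to 0.176 CPM in a library (3 counts, counting error only). *Cryba1*, whose product is a lens β-crystallin, had 38 counts over the 4 KO and 29 over the 4 flox/flox mice, was not tested, and is named after its counts were seen. The 2 most abundant relatives were *Crybg3*, at a log2 fold change of -0.05 (adjusted p = 0.864), and *Crybg1*, at -0.11 (adjusted p = 0.699). Of 15 lens fibre and lens regulator genes 3 were tested and 0 called; these included *Prox1*, at 0.15 (adjusted p = 0.837), and *Hsf4*, at -0.12 (adjusted p = 0.927). In both lists 0 genes were called by edgeR, 0 had an unadjusted p under 0.05 and 0 were called by DESeq2.

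**Figure D4:**
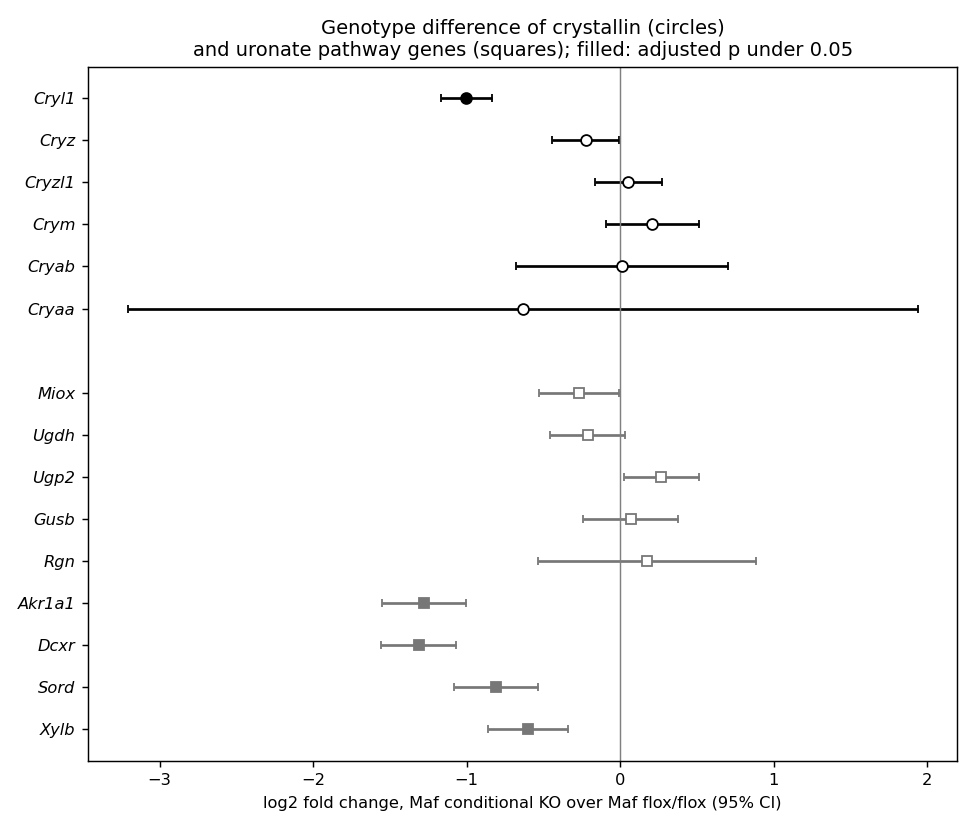
Log2 fold changes of Maf conditional KO over Maf flox/flox (x axis) with 95% confidence intervals for the 6 crystallin genes (circles) and 9 uronate pathway genes (squares), filled where the adjusted p is under 0.05. The interval of *Cryl1* runs from -1.17 to -0.84 and that of *Cryaa* from -3.21 to 1.94.

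Over all 11 lists together, 112 of the 116 symbols listed had a row and 81 genes were tested. Of these 10 fell and 2 rose in KO mice, where 1.58% of all genes tested were called lower and 0.586% higher. All of these lists were drawn up with earlier results of these data known, and the counts are a description. The genes whose log2 CPM was most like that of each crystallin gene over the 8 mice were sought as a description. The search ran over 9749 genes with a mean of at least 10 CPM (9750 for *Cryaa*). Picking the best 3 of so many genes over 8 mice favours high values of r. For *Cryl1* these were *Aspa*, *Lgmn* and the transcribed pseudogene *Gm5424*, with Pearson's r of 0.998, 0.997 and 0.995, and all 3 fell, by 1.82, 1.72 and 2.45 on the log2 scale. Like *Cryl1*, all 3 were called lower in KO mice, so the points of each correlation fall into the 2 genotypes.

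For *Cryz* the closest genes included *Tmem205* and *Stat5a* (r of 0.99 and 0.985), and for *Crym* they were *Slc25a35*, *Adamts10* and *Selenoi* (0.994, 0.974 and 0.964). *Cryab* was followed most closely by *Mid1ip1*, *Pskh1* and *Cd151* (0.973, 0.956 and 0.931). *Cryzl1* had *Pde8b*, *Extl2* and *Tmcc3* (0.932, 0.931 and 0.865), the last being the lowest value among the 6 sets. For *Cryaa* they were the pseudogenes *Gm12346* and *Txn-ps1* and the aminopeptidase gene *Anpep* (0.986, 0.98 and 0.97). *Cryaa* had few reads and was highest in the 3 low-Xist mice, and the part of the *Xist* classes in these correlations was not tested. None of the genes named here for these 5 crystallins was called for genotype.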

How the data were processed

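RNA-Seq of whole kidneys from 8 mice was analysed. The authors deposited raw counts per gene (featureCounts 2.0.1 per the file header, Ensembl release 102, GRCm38; the submitters' processing notes name Subread 2.0.2 and edgeR 3.36.0). Libraries were rRNA-depleted and directional, with 36-base paired reads; the study's methods name CLC Genomics Workbench and mm10 for mapping, but whether the deposited table came from those alignments is not given in the sources used here. Per the command in the file header, reads were counted over exons by gene name, without strand and with each mate as a read; reads falling on exons of 2 genes go to neither by default, and antisense transcripts cannot be told apart from their gene. Genes were filtered with filterByExpr, scaled by TMM and fitted with edgeR 4.0.16 (robust quasi-likelihood, genotype alone) in R 4.3.3, with Benjamini-Hochberg adjustment over 20149 genes; limma 3.58.1 and DESeq2 1.42.0 served as alternatives. Figures were drawn with matplotlib 3.10.9. CPM uses TMM-scaled library sizes. Nothing in the labels says whether mice were littermates, and p-values measure the spread between these 8 samples.

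No pair of libraries was a copy. Alternatives were other scalings, filters, tools, a replicate block, *Xist* as a covariate and leaving out each mouse. On simulated counts for 19664 genes with 200 changed, the fit recovered 70.4% of 2-fold and 93.9% of 4-fold changes, with 10 false among 171 calls. The simulated counts held no *Xist* classes, whereas 12.2% of all genes tested were called for the 2-level *Xist* term in the real counts. These rates may therefore not hold for the real counts. Genes were named by rule: the crystallin genes, genes of related lists past the threshold (otherwise the 2 most abundant), overlapping or nearest genes, genes of marker lists whose sums are given, and the 3 most alike in profile, of which 1 is not reported here. The uncalled uronate genes, *Cryzl2* and *Cryba1* were named outside the rule, after their values were seen. The members and lists were chosen with earlier results of these data known. Among marker lists, 1 gene was called in the proximal tubule (*Slc34a1*), in the endothelium (*Kdr* lower, -0.37, adjusted p = 0.045) and in the thin limb (*Fst* higher, 1.63, adjusted p = 0.0152), and 0 in the others.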

Additional observations from a re-analysis of the deposited data

Results flagged for a closer look

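In 6 of 38 gene and genotype groups examined, 1 mouse stood far from the other 3 by Dixon's ratio, its gap to the nearest mouse over the range of the group. Chance alone gives about 1.9 such groups in 38. *Cryaa* in KO mouse 1 had a ratio of 0.887, with 2.75 CPM where the 3 remaining KO mice had 0.0541 to 0.359 CPM, and it is the only low-Xist mouse of that genotype. *Crym* in flox/flox mouse 4 had a ratio of 0.844, at 7.33 CPM against 9.79 to 10.2 CPM. KO mouse 1 also stood apart for *Asl* (ratio 0.925, 85.9 against 123 to 126 CPM), *Dcxr* (0.907, 30.1 against 42.0 to 43.3 CPM) and *Xylb* (0.845, 273 against 197 to 208 CPM), low for the first 2 and high for the third. *Ttr* in flox/flox mouse 3 had a ratio of 0.943, at 67.8 CPM against 31.5 to 33.5 CPM. None of the 3 called uronate and crystallin-related genes *Asl*, *Dcxr* and *Xylb* lost its call without KO mouse 1.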

How the results depend on the processing

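*Cryl1* was called in all 12 other settings (log2 fold change -1.0 to -0.93), and the number of crystallin genes called was 1 in all 13 settings and in each of the 8 fits that left out 1 mouse. Same-numbered mice of the 2 genotypes deviated from their group means with correlations of -0.373 to 0.152, so the numbers were not taken as pairs. The replicate block turned *Cryab* to -0.022, and fits without 1 mouse ran from -0.25 to 0.18. *Cryaa* gave no value with at least 10 counts required in every mouse or among high-Xist mice alone. *Maf* was -4.28 (adjusted p = 0.0516) with the replicate block and -3.87 (adjusted p = 0.108) in high-Xist mice alone. The 12 calls in the related lists became 6 with the block, 19 with log2 *Xist* as a covariate and 20 with *Xist* as a 2-level covariate added after seeing the data, and 7 to 11 without 1 mouse; the fewest were without KO mouse 3. With the block, *Sord*, *Asl*, *Slc6a6*, *Slc6a12*, *Xylb* and *Ttr* were not past the threshold. *Asl* also missed it with quantile normalization, and *Nqo1* with that, with upper-quartile factors and under the minimum of 10 counts per mouse. The cause was not tested. Over all genes, 436 calls became 886 with DESeq2, 1374 and 1506 with the *Xist* covariates, 789 in high-Xist mice alone, 129 with the block and 239 to 452 without 1 mouse. *Cryaa*, at 1 to 54 counts, ran from -1.14 to -0.22 over the 10 settings that gave a value and from -2.43 to -0.10 without 1 mouse, and was called in none; its SE was 1.10 with genotype alone and 0.490 to 0.504 with *Xist* in the fit.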
